A study of Mus musculus with 6 samples.

Results

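The genes described here build the kinetochore, run the spindle assembly checkpoint and drive cells through mitosis. They are 48 genes chosen by name, with earlier results of these data known, among 28293 genes listed in each count file. All 48 were found there under their GENCODE M21 symbols. Polyadenylated RNA of a mouse dermal fibroblast cell line was sequenced in 6 libraries, 3 of the wild-type genotype (WT) and 3 of the genotype Lap2alpha KO (KO). Both groups were grown in the same serum-containing medium, and the genotype is the difference between them that the labels name. LAP2alpha is a nucleoplasmic isoform of lamina-associated polypeptide 2 that binds A-type lamins. The labels do not say how the knockout was made, whether each line is a clone, or whether the replicates were separate cultures, so each p-value rests on variation among libraries that may be technical. A difference between lines cannot be told apart from the loss of LAP2alpha.

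In mitosis, each chromosome is attached to spindle microtubules by a kinetochore that is assembled on centromeric chromatin. Unattached kinetochores hold the checkpoint on, which blocks Cdc20 and the anaphase-promoting complex (APC/C) until every chromosome is attached. Most genes of this machinery are transcribed mainly in dividing cells, late in the cell cycle, under the control of the MuvB complex, B-Myb and Foxm1, and they are low in resting fibroblasts.

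The libraries held 22159339 to 26553616 counts in WT and 25768678 to 27281473 in KO. Tmpo, the gene that encodes all LAP2 isoforms, was at 254, 249 and 252 CPM (counts scaled to a library total of 1000000) in the WT replicates and at 135, 122 and 131 CPM in the KO replicates. The 2 groups did not overlap (edgeR log2 fold change −1.04, SE 0.0549, adjusted p = 4.9e-08). The count does not separate the alpha isoform from the others. Of the 10 fibroblast markers examined, all were listed in the files, and their summed level was 7052 to 7755 CPM in WT and 23846 to 25321 CPM in KO. Of these, 8 were called higher, with Col1a2 the most abundant (1788 ± 80.1 to 10955 ± 184 CPM), Thy1 was called lower (379 ± 16.5 to 238 ± 11.5 CPM) and Fn1 was not called (−0.12). Of 25 markers of keratinocytes, endothelium, blood cells, melanocytes, muscle and fat, 20 were analysed here, and they summed to 11.3 to 14.9 CPM in WT and 16.4 to 18.2 CPM in KO. Vwf (0.380 to 3.93 CPM), Csf1r (0.216 to 2.40 CPM) and Des (0.607 to 2.93 CPM) were called higher. Cdh5, an endothelial marker like Vwf, was called lower (0.920 to 0.176 CPM), as were Krt10, Cdh1 and Dct. The endothelial markers Pecam1, Kdr and Tek were not tested. The keratinocyte and melanocyte sums were lower in KO (4.90 to 6.49 against 6.82 to 8.53 CPM, and 0.367 to 0.905 against 1.17 to 2.98 CPM). Ptprc had 1, 0 and 0 reads in the WT replicates and 0 in KO, and was not tested. Krt5, Krt1, Adgre1, Cd3e and Myod1 were not analysed here. Mitochondrially encoded genes took 1.99 to 2.45% of the counts in WT and 3.76 to 4.46% in KO. The part of these differences in the results below was not tested.

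Expression of the mitotic machinery was lower in KO. Genes were called at an edgeR adjusted p under 0.05 over all 15081 tested genes, and fold changes are KO relative to WT. All 48 genes passed the filter on low counts, with 143 to 18299 reads each in any library. Of them, 45 were called lower (93.8%), 1 was called higher and 2 were not called. Calls were common in these data: 75.1% of all tested genes were called, 37.5% lower and 37.7% higher. The median log2 fold change of the 48 genes was −1.04, a 2.06-fold decrease, beside a median of 0.01 over all tested genes. A decrease of at least 2-fold was called for 26 of the 48 genes, against 11.4% of all tested genes. In bulk RNA, fewer dividing cells and less of each mRNA per cell cannot be told apart.

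The summed level of the 48 genes was 5456, 5435 and 5517 CPM in the WT replicates and 3119, 3070 and 3090 CPM in the KO replicates. Thus the KO libraries carried 56.1 to 57.0% of the WT mean, and the replicates lay close together. Within a group, the median coefficient of variation of a gene was 3.29% in WT and 4.84% in KO. The most variable genes were Cenpw in WT (17.7%) and Mis18a in KO (17.6%). For all 45 genes called lower, every KO library was below every WT library, a pattern shown by 34.6% of all tested genes. The median gene of each KO library stood at −0.95 to −0.93 from the WT mean on a log2 CPM scale, with no library apart from the others.

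**Figure D1:**
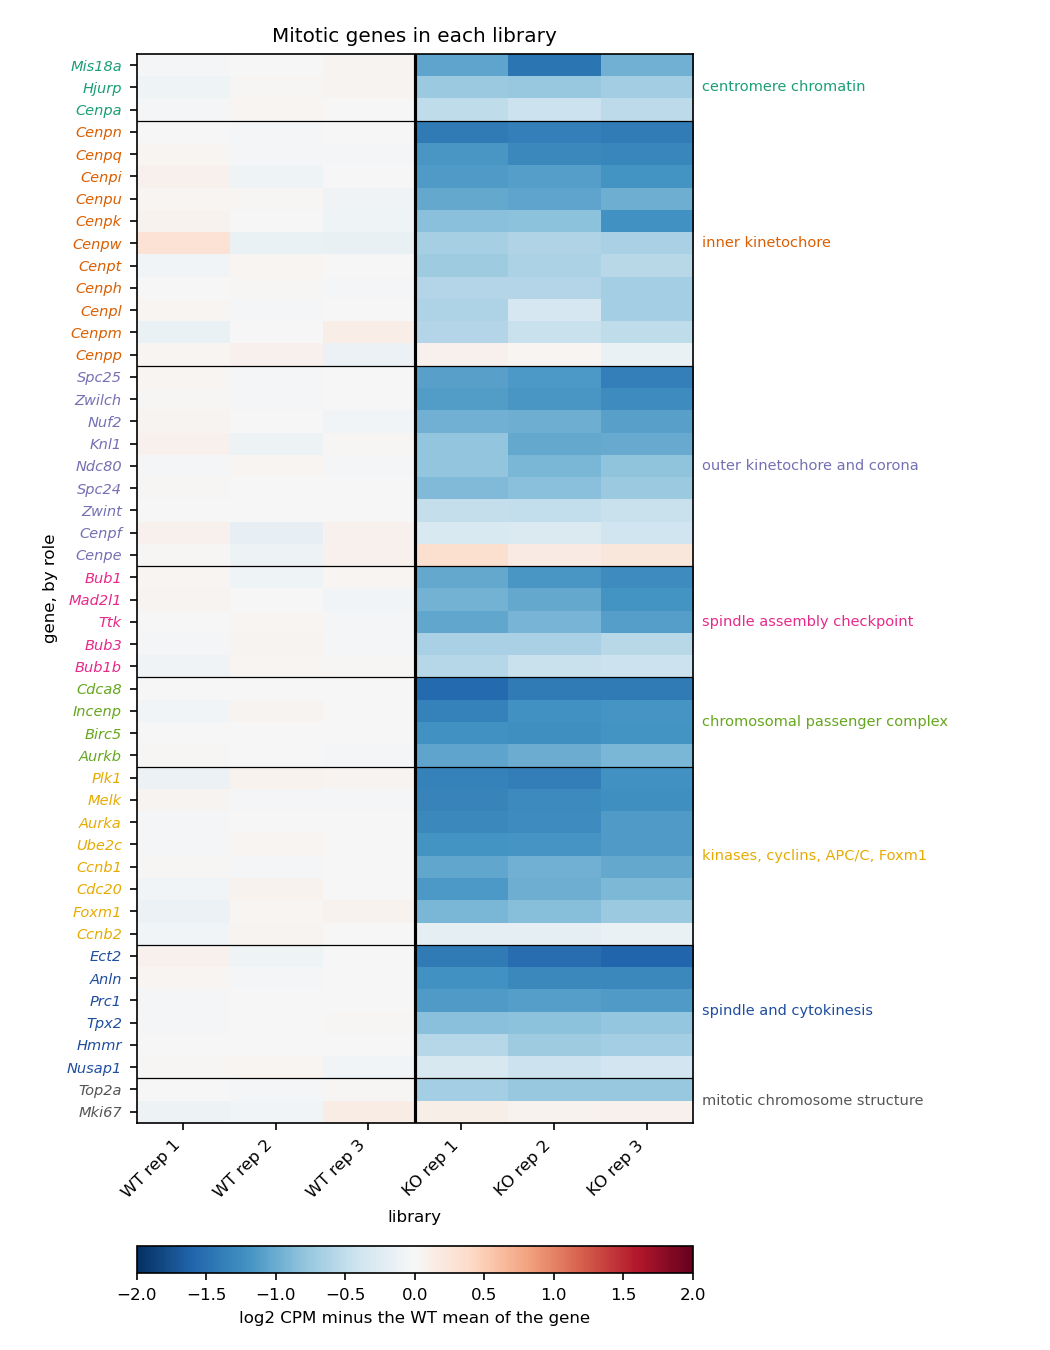
Level of each of the 48 genes in each library, as log2 CPM minus the mean of the gene in the 3 WT libraries, with genes grouped by role and libraries in columns. The KO columns are blue for the 45 genes called lower, while Cenpp and Mki67 stay near the WT mean and Cenpe is slightly above it.

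The promoters of the genes are described next, and their part in the fold changes was not tested. Genes of late cell cycle phases commonly carry a CHR element (cell cycle genes homology region), bound by MuvB complexes, together with CCAAT boxes, bound by NF-Y, whereas genes of replication more often carry E2F sites. RefSeq promoters of GRCm38.p6, each covering 250 bases before to 50 after a transcript start, were found for 42 of the 48 genes (47 promoters). The letters searched on both strands were TTTGAA or TTCGAA for CHR, CCAAT for the CCAAT box, and TTTGGCGC, TTTCGCGC, TTTCCCGC, TTTGCCGC or TTCCCGCC for E2F. Other forms of these elements were not searched, so a gene without a match may still carry one. In the stretches printed below, from 100 bases before to 30 after the start, capitals mark these matches, and ATTGG is CCAAT read on the opposite strand, which in Cdca8 overlaps the end of the CHR match. Cdca8, Bub1 and Cdc20 are examples of genes that fell at least 2-fold and carry both CHR and CCAAT letters. Ccnb1 and Ccnb2 are cyclins that fell by different amounts, and Mki67, Cenpe and Cenpp are the genes that were not lower. Decreases of at least 2-fold were called for 14 of 27 genes with CHR letters and 9 of 15 with a promoter but no such letters. Over all tested genes the share was 11.4%.
Cdca8, chr4:124936888-124937017, minus strand: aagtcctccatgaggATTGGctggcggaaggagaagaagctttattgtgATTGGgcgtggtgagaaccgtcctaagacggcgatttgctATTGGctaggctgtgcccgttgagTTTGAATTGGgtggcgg
Bub1, chr2:127831830-127831959, minus strand: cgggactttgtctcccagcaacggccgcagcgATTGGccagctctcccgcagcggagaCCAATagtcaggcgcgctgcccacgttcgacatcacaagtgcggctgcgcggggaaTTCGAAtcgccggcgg
Cdc20, chr4:118437314-118437443, minus strand: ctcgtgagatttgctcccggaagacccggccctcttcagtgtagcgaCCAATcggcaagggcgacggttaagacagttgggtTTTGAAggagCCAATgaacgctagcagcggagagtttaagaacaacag
Ccnb1, chr13:100786457-100786586, minus strand: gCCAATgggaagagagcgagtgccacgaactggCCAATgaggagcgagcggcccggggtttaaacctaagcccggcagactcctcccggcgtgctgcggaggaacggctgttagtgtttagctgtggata
Ccnb2, chr9:70421525-70421654, minus strand: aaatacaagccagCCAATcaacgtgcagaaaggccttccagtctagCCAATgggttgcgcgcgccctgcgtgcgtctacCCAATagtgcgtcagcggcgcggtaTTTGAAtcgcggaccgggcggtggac
Mki67, chr7:135716350-135716479, minus strand: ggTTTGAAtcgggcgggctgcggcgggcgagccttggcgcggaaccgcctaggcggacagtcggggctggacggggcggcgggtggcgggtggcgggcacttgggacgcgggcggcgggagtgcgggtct
Cenpe, chr3:135212463-135212592, plus strand: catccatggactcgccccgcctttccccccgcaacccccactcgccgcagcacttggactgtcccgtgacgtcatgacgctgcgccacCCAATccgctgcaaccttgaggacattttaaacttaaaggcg
Cenpp, chr13:49652702-49652831, minus strand: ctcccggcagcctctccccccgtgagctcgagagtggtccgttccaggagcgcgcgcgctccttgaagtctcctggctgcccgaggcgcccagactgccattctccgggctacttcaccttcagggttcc

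CHR letters were present in the promoters of 27 of the 42 genes (64.3%), against 21.7% of the 27025 genes with a promoter in the same table (19.2% of all promoters). This background, used for all letters here, includes genes that were not tested for expression, whereas all of the 42 genes were. CCAAT was present in 31 genes (73.8%), against 41.1% of all genes, and 21 of the 42 genes had at least 2 distinct matches, against 14.2% of all genes. Both CHR and CCAAT were present in 23 genes (54.8%), against 8.61% of all genes. E2F letters were present in 5 genes (11.9%, against 4.46%), and these were Mis18a, Cenph, Cenpl, Cenpm and Cenpn, all of them in the centromere or inner kinetochore groups. None of the letters was found in 7 genes (16.7%, against 44.9% of all genes), among them Birc5, Melk and Nusap1, which were called lower. With a match in overlapping promoters counted once, 24 of 35 CHR matches lay within 50 bases of the nearest transcript start, and their median position was −5. Of 71 CCAAT matches 24 did, with a median position of −68. In Mki67, which was not called, the CHR matches began 116 and 98 bases before the start, and in Cenpe and Cenpp no CHR letters were found in this window. Neither trait was limited to genes that were not lower. The only CHR matches of Mis18a and Cenpl, both called lower, were at −241 and −162. Of the 15 genes with a promoter but no CHR letters, 13 were called lower, beside 37.5% of all tested genes.

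The median log2 fold change was −1.01 over the 27 genes with CHR and −1.08 over the 15 genes without it. With CCAAT the median was −1.02 and without it −1.08. The 23 genes with both had a median of −0.81 and the 7 with none of the letters −1.08. The 5 genes with E2F letters had a median of −0.69, within a range from −1.47 to −0.59, and the genes without them a median of −1.08. These medians are descriptions over few genes, and a match is not a binding site. In the narrower window from 100 bases before to 50 after the start, CHR letters were present in 59.5% of the 42 genes, against 9.87% of all genes, and CCAAT in 64.3%, against 26.3%.

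**Figure D2:**
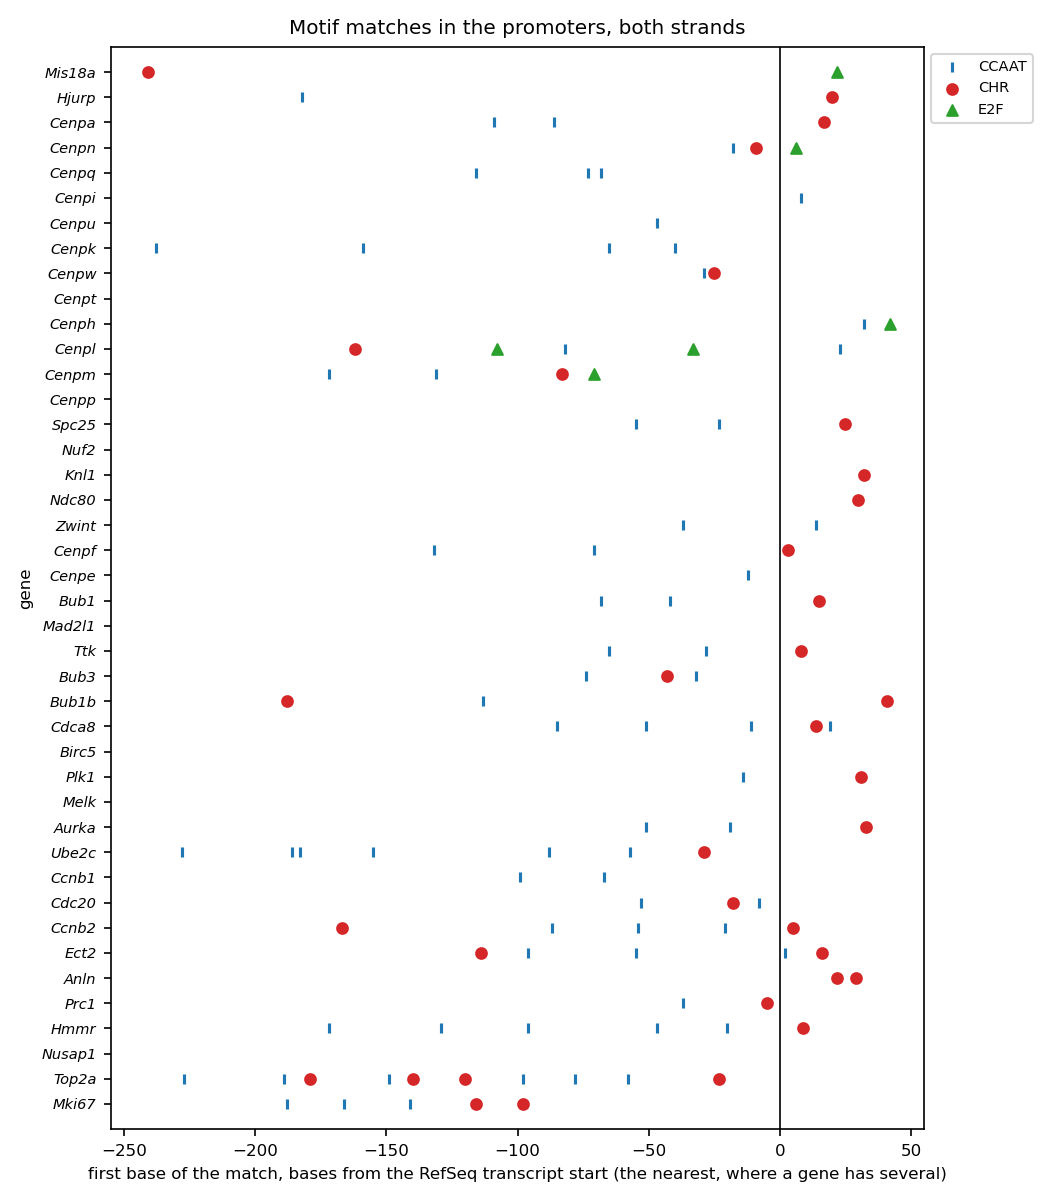
Position of the first base of each CHR, CCAAT and E2F match relative to the RefSeq transcript start, in bases (the nearest start, where a gene has several), for the 42 genes with a promoter in the table, with both strands pooled. Most CHR matches sit near the start. Those of Mki67 lie 116 and 98 bases upstream, and the only ones of Mis18a and Cenpl, both called lower, lie at −241 and −162.

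Genes that place and load centromeric chromatin were all lower. Cenpa, the centromeric histone, was at 72.6, 77.3 and 75.0 CPM in WT and at 52.8, 55.7 and 52.0 CPM in KO, a small fall with no overlap (log2 fold change −0.56, SE 0.0526, edgeR adjusted p = 3.5e-06). Its chaperone Hjurp fell from 171 ± 8.39 to 103 ± 2.78 CPM (mean ± SD, n = 3 libraries). Mis18a, part of the complex that licenses loading, fell most of these (log2 fold change −1.22), and its KO values were 9.79, 7.35 and 10.4 CPM against 19.8, 20.1 and 21.0 CPM in WT.

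The inner kinetochore is a constitutive network of CENP proteins on the centromere. Of its 11 genes, 10 were called lower, with a median log2 fold change of −0.73. Cenpn, whose protein reads the CENP-A nucleosome, fell most, from 44.1, 43.3 and 44.3 CPM in WT to 16.4, 17.0 and 16.6 CPM in KO (log2 fold change −1.47, SE 0.0571, edgeR adjusted p = 6.0e-09). Cenpq (−1.33), Cenpi (−1.22), Cenpu (−1.10) and Cenpk (−1.02) also fell at least 2-fold. Cenph, Cenpm, Cenpi and Cenpk encode subunits of the same subcomplex. The 95% intervals of Cenph (−0.85 to −0.54) and Cenpm (−0.78 to −0.40) do not meet that of Cenpi (−1.36 to −1.09), though the difference between these genes was not tested. Cenpt (−0.71), Cenpw (−0.73) and Cenpl (−0.61) were in the lower range. The count of Cenpu includes exons that lie opposite Primpol for 26.7% of their length, and Primpol was slightly higher in KO (0.24).

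Cenpp was the exception in the inner kinetochore. Its level was 6.50, 6.67 and 5.80 CPM in WT and at 6.71, 6.49 and 5.78 CPM in KO, so the groups overlapped (log2 fold change −0.08, 95% interval −0.32 to 0.17, edgeR adjusted p = 0.55). Cenpp (ENSMUSG00000021391) lies on the minus strand of chromosome 13 (GRCm38, start 49464023, end 49652785), and 12.6% of its exonic sequence lies opposite exons of Ippk and Aspn. Aspn, a matrix proteoglycan gene, was at 1.49 to 2.55 CPM in WT and at 47.4 to 66.5 CPM in KO, while Ippk fell (−0.89). Whether the authors' counts used the strand is not given in the sources used here, and the part of these neighbours in the Cenpp count was not tested.

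The outer kinetochore binds microtubules through the Ndc80 complex, Knl1 and the Mis12 complex. All 4 subunits of the Ndc80 complex fell. Ndc80 was at 71.3, 74.3 and 71.2 CPM in WT and at 41.8, 38.3 and 41.5 CPM in KO (log2 fold change −0.91, SE 0.0577, edgeR adjusted p = 1.8e-07). Its partner Nuf2 (−1.08), Spc24 (−0.90) and Spc25 (−1.27) were lower too. The 2 groups were separate for each of these subunits. Knl1, the scaffold for checkpoint proteins, fell (−1.01), and so did Zwilch (−1.25), a subunit of the complex that recruits dynein and Mad1. Zwint, which joins Knl1 to that complex, fell from 285 ± 2.14 to 205 ± 3.67 CPM (−0.55).

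Cenpe and Cenpf, large proteins of the fibrous corona, departed from this pattern. Cenpf was at 67.9, 57.0 and 67.8 CPM in WT and at 51.7, 52.4 and 48.5 CPM in KO, a modest fall (log2 fold change −0.41, SE 0.0731, edgeR adjusted p = 4.4e-04). Cenpe, a kinesin that moves chromosomes to the spindle equator, was at 92.9, 84.8 and 97.0 CPM in WT and at 115, 102 and 107 CPM in KO. In these CPM, scaled to library totals alone, all 3 KO values were above all 3 WT values, a pattern shown by 42.2% of all tested genes. The separation was not examined on the TMM scaling of the edgeR fit. With library totals alone the edgeR log2 fold change was 0.24. The call was marginal (log2 fold change 0.16, SE 0.0658, 95% interval 0.01 to 0.31, edgeR adjusted p = 0.048). It was lost in 8 of 15 alternatives, among them DESeq2 size factors (adjusted p = 0.054 in edgeR) and the omission of each library except KO replicate 2 (0.059 to 0.18), with adjusted p from 0.0079 to 1 over all alternatives. Cenpe (ENSMUSG00000045328) lies on chromosome 3 from 135212537 to 135273611 on the plus strand.

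The checkpoint kinases and adaptors were all lower. Bub1, a kinase that marks the inner centromere and recruits checkpoint proteins, was at 126, 116 and 127 CPM in WT and at 60.6, 54.5 and 51.2 CPM in KO (log2 fold change −1.23, SE 0.0686, edgeR adjusted p = 7.3e-08). Its relative Bub1b, which encodes the checkpoint inhibitor BubR1, fell too (−0.56, 95% interval −0.68 to −0.43). The ratio of Bub1 to Bub1b in each library was 0.718 to 0.838 in WT and 0.438 to 0.571 in KO. Mad2l1, the Cdc20-binding effector, fell from 119 ± 4.04 to 57.5 ± 5.13 CPM, and Ttk, the kinase Mps1 at the head of the pathway, fell from 55.6 ± 1.56 to 27.3 ± 1.70 CPM. Bub3, which carries Bub1 and BubR1 to Knl1, was also lower (−0.69).

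All 4 genes of the chromosomal passenger complex fell at least 2-fold. This complex releases wrongly attached microtubules and acts again in cytokinesis. Cdca8, which encodes the targeting subunit borealin, was at 92.7, 94.3 and 93.6 CPM in WT and at 31.9, 35.1 and 35.2 CPM in KO (log2 fold change −1.53, SE 0.0575, edgeR adjusted p = 5.0e-09). Birc5, the survivin gene, fell from 164 ± 1.67 to 70.8 ± 1.04 CPM, and Incenp, the scaffold, from 167 ± 6.25 to 70.3 ± 4.45 CPM. Aurkb, the kinase, fell from 62.8 ± 1.20 to 31.7 ± 1.57 CPM (−1.06), with an interval (−1.19 to −0.93) that does not meet that of Cdca8 (−1.66 to −1.41).

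Among the mitotic kinases, Plk1, which acts from mitotic entry to cytokinesis, fell from 103, 118 and 116 CPM in WT to 44.1, 42.9 and 48.3 CPM in KO (log2 fold change −1.39, SE 0.0705, edgeR adjusted p = 3.6e-08). Aurka, the centrosomal and spindle kinase (−1.31), and Melk, a kinase of proliferating cells (−1.36), fell too. The groups did not overlap for these 3 genes. The ratio of Aurka to Aurkb was 1.40 to 1.49 in WT and 1.21 to 1.24 in KO. Cdc20, the APC/C activator held by the checkpoint, fell from 99.4 ± 4.39 to 49.6 ± 4.36 CPM. Ube2c, the ubiquitin-conjugating enzyme of the APC/C, fell from 182 ± 4.09 to 80.6 ± 1.75 CPM, though 22.8% of its exonic sequence lies opposite Tnnc2, which was not analysed here. Foxm1, a transcription factor of late cell cycle genes, was itself lower (114 ± 7.88 to 63.8 ± 3.88 CPM, log2 fold change −0.92).

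The B-type cyclins, which activate Cdk1, fell by unequal amounts. Ccnb1 was at 156, 150 and 155 CPM in WT and at 74.4, 78.7 and 75.3 CPM in KO (log2 fold change −1.09, SE 0.0503, edgeR adjusted p = 1.9e-08). Ccnb2 was at 84.8, 91.5 and 86.7 CPM in WT and at 76.5, 77.6 and 79.6 CPM in KO, a fall of 1.19-fold that was still called (−0.25, SE 0.0531, edgeR adjusted p = 1.6e-03). The ratio of Ccnb1 to Ccnb2 in each library was 1.84, 1.64 and 1.79 in WT and 0.972, 1.02 and 0.945 in KO. Both promoters printed above carry several CCAAT boxes. The CHR letters searched were found only in that of Ccnb2, and other forms of the element were not searched.

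Spindle and cytokinesis genes were all lower. Ect2, the exchange factor that activates RhoA at the cleavage furrow, had the largest decrease of the 48 genes, from 221, 196 and 208 CPM in WT to 78.3, 72.7 and 69.5 CPM in KO (log2 fold change −1.58, SE 0.0651, edgeR adjusted p = 9.1e-09). Anln, which encodes the furrow protein anillin, fell from 408 ± 11.5 to 170 ± 5.13 CPM, and Prc1, which bundles midzone microtubules, from 174 ± 2.18 to 79.9 ± 0.947 CPM. Falls were smaller for the spindle assembly genes Tpx2 (−0.89), Hmmr (−0.72) and Nusap1 (−0.45). For Prc1, 11.1% of the exonic sequence lies opposite Rccd1, which also fell (−0.57).

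Top2a and Mki67, both widely used as proliferation markers, differed from each other. Top2a, the topoisomerase that untangles sister chromatids, was at 711, 689 and 715 CPM in WT and at 441, 418 and 415 CPM in KO (log2 fold change −0.81, SE 0.0486, edgeR adjusted p = 1.2e-07). Mki67, which coats mitotic chromosomes, was at 187, 193 and 221 CPM in WT and at 217, 209 and 213 CPM in KO. The Mki67 groups overlapped, and its log2 fold change was 0.01 with a 95% interval from −0.13 to 0.15 (edgeR adjusted p = 0.89), so a fall as large as that of Top2a lies outside its interval. The ratio of Mki67 to Top2a was 0.263 to 0.310 in WT and 0.493 to 0.513 in KO. Mki67 (ENSMUSG00000031004) lies on chromosome 7 from 135689784 to 135716361 on the minus strand.

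The ratios given here were computed for 7 pairs, chosen after their values were seen. For each of the 7 the WT and KO libraries did not overlap, which in a 2-sided exact permutation test gives p = 0.1 (0.1 after Benjamini-Hochberg adjustment), the smallest that 3 libraries against 3 allow. Because of the choice of pairs, this count does not measure how often ratios separate. The share over other pairs was not computed. The remaining pairs were Cenpe to Cenpf, 1.37 to 1.49 in WT and 1.95 to 2.22 in KO, Ndc80 to Nuf2, 0.952 to 1.03 and 1.04 to 1.22, and Spc24 to Spc25, 0.713 to 0.733 and 0.836 to 1.11.

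**Figure D3:**
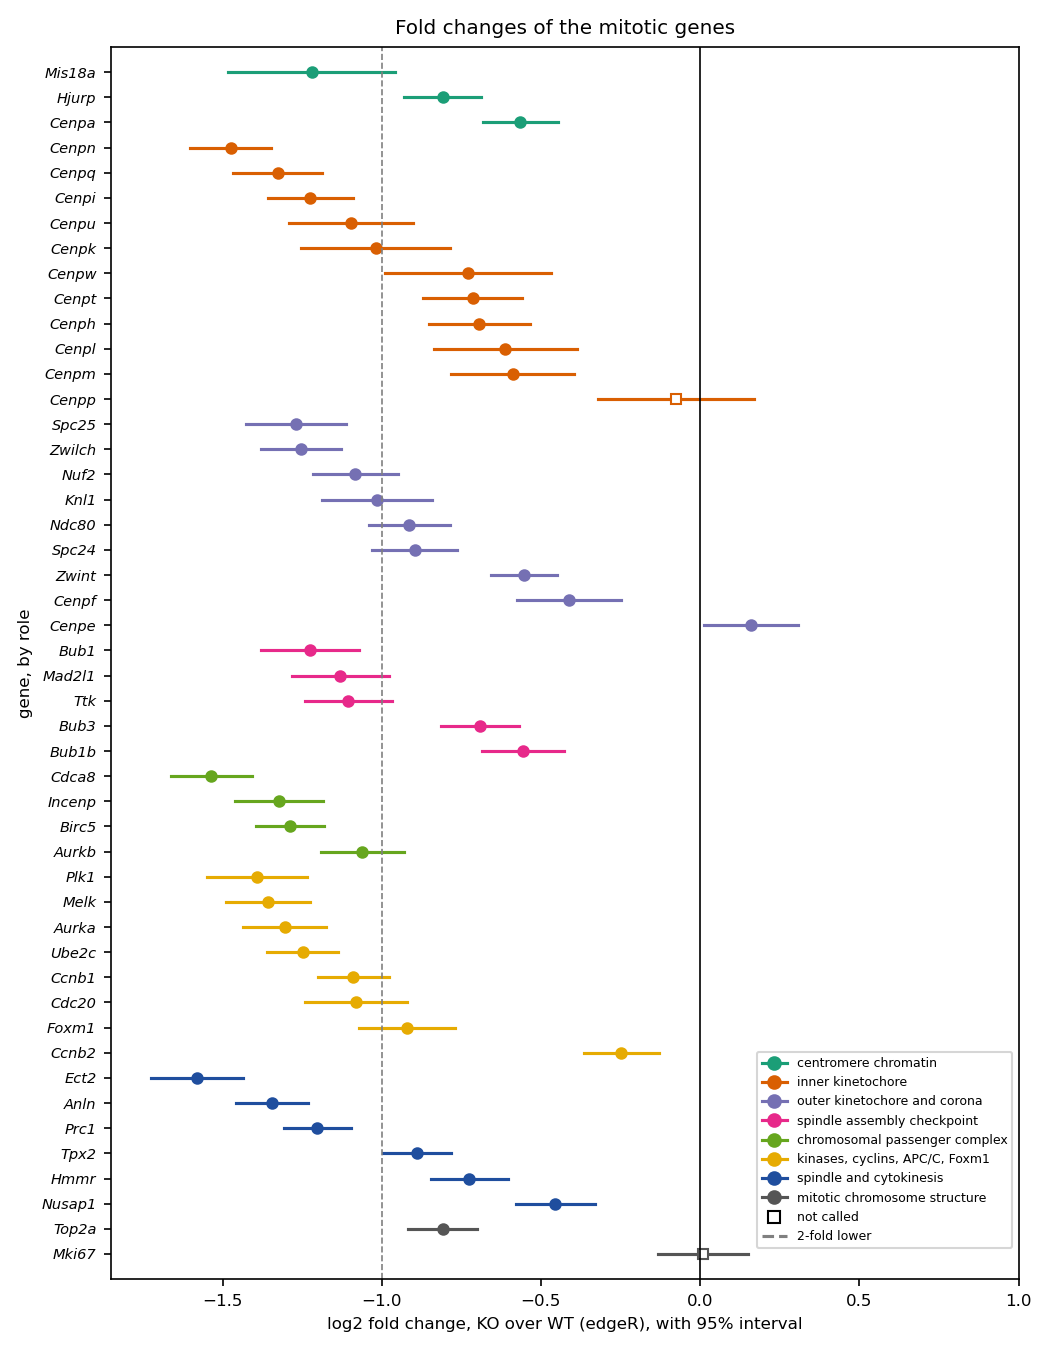
Log2 fold change of each gene, KO over WT, from edgeR with its 95% interval, grouped by role. Open squares are the genes not called (Cenpp and Mki67), the dashed line is a 2-fold decrease, and Cenpe at 0.16 is the sole gene called to the right of 0.

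The size of the decrease varied among genes. Among the genes called lower, 6 fell by less than 1.5-fold: Cenpa, Bub1b, Zwint, Nusap1, Cenpf and Ccnb2. When edgeR tested against a fold of 1.5 in place of no change, 35 of the 48 genes were still called lower, beside 16.8% of all tested genes. The passenger complex had the deepest median (−1.30) and the inner kinetochore (−0.73) and centromere chromatin (−0.81) groups the shallowest among groups of at least 3 genes. Across the 48 genes, the log2 fold change had a Spearman correlation of 0.18 with exonic length, −0.08 with GC content and −0.02 with mean CPM. These are descriptions across genes, which share libraries and are not independent replicates. The longest genes included Cenpf, Mki67 and Cenpe, but also Anln and Knl1, which fell.

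Levels were compared between genes per kilobase of exonic sequence, using the mean CPM of a group. In WT, Top2a was highest at 78.2 CPM per kilobase, followed by Ube2c (69.8), Zwint (64.2) and Ccnb2 (57.3), and Cenpl was lowest at 2.19, a 35.7-fold range. In KO, Ccnb2 was highest (50.9), ahead of Top2a (47.1) and Zwint (46.1). Mki67 stood 23rd of 48 in WT (19.9 CPM per kilobase) and 8th in KO (21.2), and Cenpe stood 38th in WT (10.6) and 19th in KO (12.5). The lowest levels in WT after Cenpl were those of Cenpp (2.47) and Cenpu (3.34), also inner kinetochore genes. Exonic length here is the union of all annotated isoforms, which understates the level of genes with long unused exons.

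**Figure D4:**
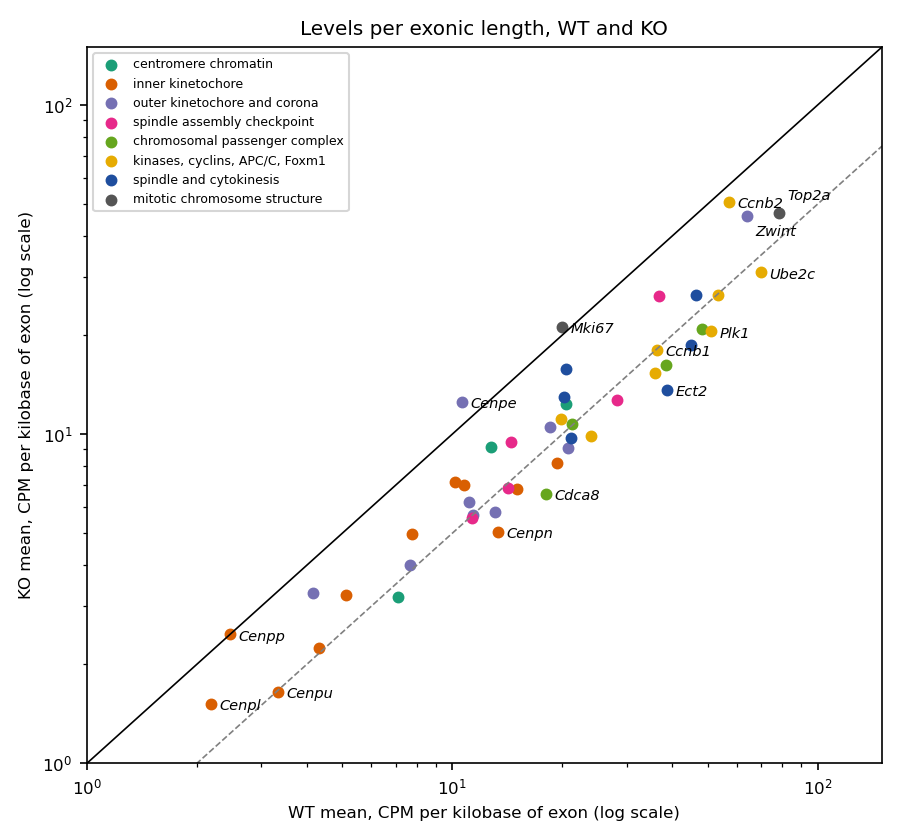
Mean level of each gene in WT (horizontal) and KO (vertical) in CPM per kilobase of exon, both on log scales, coloured by role, with n = 3 libraries a group. The solid line is equality and the dashed line a 2-fold decrease; Mki67 and Cenpp lie close to the solid line, Cenpe above it and Ccnb2 just below it.

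The genes are spread over 17 chromosomes, with 8 of them on chromosome 2. For 11 of them, a protein-coding gene on the opposite strand starts within 1000 bases of their own start in a head-to-head layout. Of the 10 such neighbours that could be tested, 8 were called lower and 2 were not called, beside 37.5% called lower over all tested genes. Nol8, a nucleolar gene whose start lies 293 bases from that of Cenpp, fell (log2 fold change −1.18, SE 0.0715, edgeR adjusted p = 1.3e-07), while Cenpp was not called. Conversely, the neighbour of Cenpq (−1.33) is Mut, the methylmalonyl-CoA mutase gene, which was not called (−0.04), and the neighbour of Foxm1 (−0.92) is Rhno1, also not called (−0.13). Nusap1 and Oip5, whose starts are 171 bases apart, both fell (−0.45 and −1.01).

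A further 94 mitotic genes outside these 48, in lists that were chosen with earlier results of these data known, moved mostly the same way. Of them, 78 were called lower, 8 higher and 8 not called, with a median of −0.69. Over all tested genes, the shares beside this and each list below were 37.5% called lower and 37.7% called higher. Among other kinetochore and centromere genes 23 of 24 fell. Trip13, an ATPase that disassembles checkpoint complexes, fell from 62.2 ± 0.906 to 19.4 ± 0.905 CPM (log2 fold change −1.76), and Kntc1 (−1.17), Pmf1 (−1.01) and Ska2 (−1.29) fell. Itgb3bp, which encodes the inner kinetochore protein CENP-R, was the exception and rose from 10.4 ± 1.01 to 18.3 ± 2.48 CPM. Of 8 condensin genes, which compact mitotic chromosomes, 7 fell, with Ncapd3 (−1.42), Ncaph (−0.98), Ncapg2 (−1.33) and Ncapg (−0.89) as those of smallest p, and Ncaph2 was not called (0.09).

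Genes of mitotic entry fell in 10 of 12 cases, among them Ccna2 (−1.42), Cdk1 (−1.22), the phosphatase gene Cdc25a (−1.20) and Ccnf (−1.21). Ensa, which encodes an inhibitor of the phosphatase that opposes Cdk1, rose (0.26), and Bora was not called. Of 25 other spindle and cytokinesis genes 23 fell. Cep55, needed for abscission, fell from 72.3 ± 2.67 to 16.3 ± 1.34 CPM (log2 fold change −2.23). Plk4, the centriole duplication kinase (−1.64), Haus7 (−1.26) and Ckap2l (−0.91) fell too, while Numa1, a spindle pole protein with a role in interphase nuclei, rose (0.75). Of the MuvB core and its partner B-Myb, 5 of 6 genes fell, with Mybl2 (−1.68), Lin54 (−1.71), Lin9 (−1.24) and Rbbp4 (−0.70) lower and Lin37 higher (0.74).

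The APC/C and its partners were mixed. Of the 19 genes of this list, 10 fell, 4 rose and 5 were not called. The 14 genes for subunits of the complex itself, set apart after their values were seen, had a median log2 fold change of −0.08, with 6 lower, 3 higher and 5 not called, a share of lower genes (42.9%) near the background of 37.5%. Among these subunits Anapc5 fell (−0.82) and Anapc2, the cullin subunit, rose (0.81), as did Cdc23 (0.25) and Cdc16 (0.13). The E2 enzyme Ube2s (−1.16), the inhibitor Fbxo5 (−1.54) and the separase gene Espl1 (−1.02) fell, whereas Pttg1, which encodes the separase inhibitor securin, rose from 11.0 ± 1.11 to 16.5 ± 0.101 CPM.

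**Figure D5:**
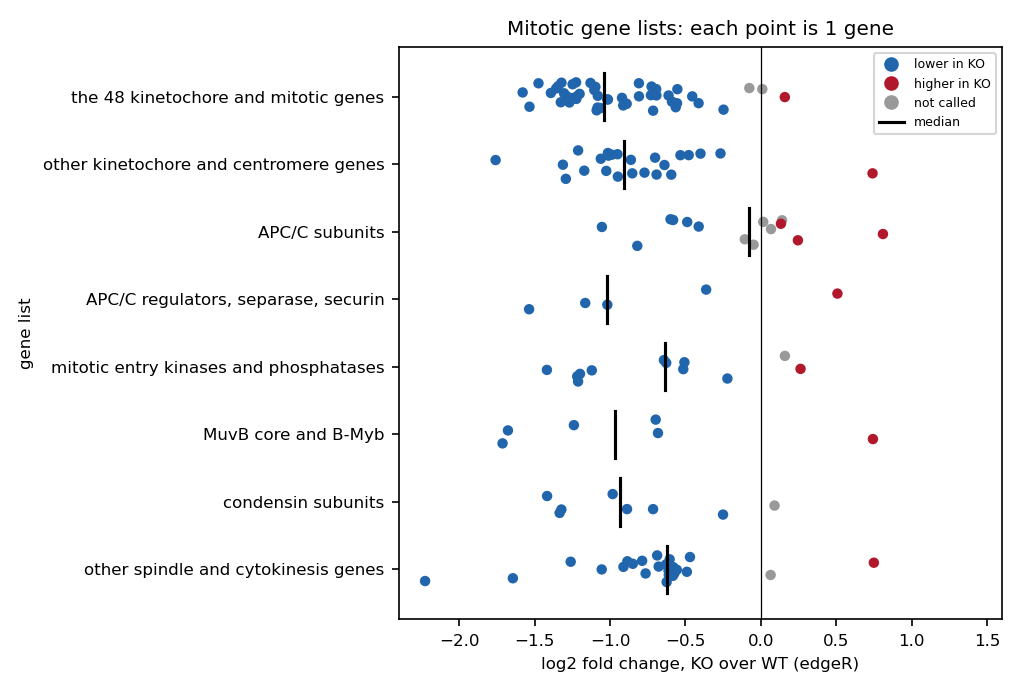
Log2 fold changes, KO over WT, of the 48 genes and of 94 further mitotic genes by list, 1 point a gene, coloured by edgeR call, with a bar at each median. The medians lie to the left of 0 in each list, and that of the APC/C subunits, at −0.08, is nearest to it.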

How the data were processed

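Counts per Ensembl gene for 6 libraries (3 WT, 3 KO) were used as deposited. Per the submitters' processing notes, STAR 2.7.10b and GRCm38 were used. The counting program, its annotation, strand setting and treatment of multiply mapped reads were not stated there or elsewhere in the sources used. Of 28293 identifiers, 28230 were matched to GENCODE M21 on GRCm38 for symbols, positions and exonic lengths. Levels are CPM, counts scaled to a library total of 1000000. The comparison of KO to WT used edgeR 4.0.16 (R 4.3.3) with TMM scaling, filterByExpr, the quasi-likelihood test and Benjamini-Hochberg adjustment over all tested genes, called under 0.05. Intervals are 95% from that fit. The script was tested on simulated data. Members and lists were chosen with earlier results of these data known. The text names all 48 members, Tmpo, up to 4 genes of smallest p of each other list, and genes of those lists called in the opposite direction. Other genes were named after their values were seen. Alternatives were DESeq2 1.42.0, limma-voom (limma 3.58.1), other scalings and filters, a test against a fold of 1.5, the replicate number as a block, and leaving out each library. Promoter sequences are from RefSeq, GRCm38.p6. Figures were drawn with matplotlib 3.10.9.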

Additional observations from a re-analysis of the deposited data

How the results depend on the processing

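The count of 45 genes lower held in 14 of 15 alternatives and was 35 when tested against a fold of 1.5, where 5621 genes were called in all, 44 of the 94 further mitotic genes were lower and 2 higher. The 1 member called higher (Cenpe) became 0 with DESeq2 size factors, with no filter, against a fold of 1.5, and without 5 of the 6 libraries (range 0 to 1). The median log2 fold change of −1.04 was −0.98 with upper-quartile scaling, −0.96 with library totals alone, −1.06 with no filter, −1.03 with a filter of at least 1 CPM, and −1.09 to −1.02 on leaving out 1 library. The values that changed sign belonged to genes that were not called: Cenpp was 0.0019 with library totals alone, and Mki67 was −0.0098 with no filter and −0.0572 (without WT replicate 1) to 0.0584 (without WT replicate 3) on leaving out 1 library, below 0 also without WT replicate 2 (−0.0125) or KO replicate 3 (−0.0026). Of the 48 genes, 35 kept direction and call throughout. Deviations from the group mean were correlated between WT and KO libraries. Same-numbered libraries gave 0.23, −0.13 and 0.22 for numbers 1, 2 and 3, within the range of differently numbered ones (−0.45 to 0.38). With the replicate number as a block 45 genes were lower, 1 higher and the median was −1.04. In all, 11697 genes were called with the block and 11330 without it. Counts of 143 or more reads per gene limit the lowest genes (Cenpp, Cenpl, Cenpu) more than the rest.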
